A study of Mus musculus with 36 samples.

Results

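The nucleus accumbens (NAc) and the prefrontal cortex (PFC) of vehicle-treated mice were compared by mRNA microarray. The members were the 6 arrays labelled vehicle in either region, 3 of the NAc and 3 of the PFC, among 36 arrays in the series. The animals were male C57BL/6J mice, 11 weeks old, which received 10 daily intraperitoneal injections of 7.5 mL/kg of vehicle, made of 10% DMSO with equal parts (45% each) of PEG-400 and saline, and tissue was taken 1 h after the last injection. All 6 arrays therefore come from repeatedly injected animals, and untreated tissue was not analysed here. Each array held RNA pooled from 2 mice. Both regions came from the same animals, namely mice 1 and 2 (pool 1), mice 3 and 4 (pool 2) and mice 5 and 6 (pool 3), so that each pool gives 1 NAc minus PFC difference. The other 18 arrays of both regions, from mice given an HDAC inhibitor, namely Cpd-60 at 45 mg/kg, SAHA at 25 mg/kg and CI-994 at 10 mg/kg, were used to measure the same difference in other animals.

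The NAc is the ventral part of the striatum, a subpallial structure in which most neurons are GABAergic projection neurons. These neurons receive dopamine from the midbrain and glutamate from the cortex, and they are usually divided into those with the D1 dopamine receptor, which also make substance P and dynorphin, and those with the D2 dopamine receptor and an adenosine receptor (Adora2a), which also make enkephalin. The PFC is a pallial structure in which most neurons are glutamatergic pyramidal cells arranged in layers, with a minority of local GABAergic interneurons. Dissected tissue holds all of these cells together with glia and vessels. In such bulk samples, fewer cells of a type and less RNA per cell cannot be told apart.

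Of 45281 probes on each array, between 15696 and 18573 were detected (detection p of at most 0.01), and median raw intensity was between 85.6 and 104.4. The NAc array of pool 3 stood apart from its group. It was the brightest, with its top 5% of probes above 861.2 against 480.5 to 617.5 on the other 5 arrays, and its log2 values correlated at 0.971 and 0.976 with the other NAc arrays, which correlated at 0.994 with each other. Correlations within the PFC were 0.987 to 0.994 and those between regions 0.922 to 0.965. Each BeadChip, the slide that carries the arrays, held 1 region, so that region and BeadChip cannot be told apart. In both regions pools 1 and 2 lay on 1 BeadChip and pool 3 on another. Values below are log2 of quantile normalized intensity that still contains background, and therefore understate the fold change of weak probes. The p-values rest on the spread between 3 pools of different mice, and this number limits the precision of every value. That spread also holds any difference between BeadChips, since pools 1 and 2 shared a BeadChip in each region. With region in the model, arrays on the same BeadChip correlated at 0.47 (consensus over the tested probes). Each p and SE is limma's moderated one, in which the variance of a probe is drawn towards that of all tested probes. For a probe that varied widely between pools, the SE is therefore smaller than its own pools alone would give.

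The marker genes followed the region labels. Drd2 (D2 dopamine receptor) measured 8.76, 8.98 and 9.40 in NAc pools 1 to 3, against 6.80, 6.74 and 6.59 in the PFC pools. The NAc pools were all higher than the PFC pools, by 2.34 ± 0.16 log2 units (moderated SE, n = 3 pools), a 5.06-fold difference (adjusted p = 0.00108, limma). The differences in pools 1 to 3 were 1.97, 2.24 and 2.81, and the probe was detected on 1 of 3 PFC arrays. Adora2a, the adenosine receptor of the same neurons, measured 7.54, 7.54 and 7.65 in NAc pools 1 to 3, against 6.59, 6.66 and 6.42 in the PFC pools. It was detected on 3 of 3 NAc arrays and on 0 of 3 PFC arrays, so that it was at least 1.79-fold higher in the NAc (adjusted p = 0.00235). Slc17a7, the vesicular glutamate transporter of cortical pyramidal cells, measured 8.10, 8.27 and 7.64 in NAc pools 1 to 3, against 11.60, 11.57 and 11.08 in the PFC pools. It was 10.7-fold higher in the PFC, a log2 difference of -3.42 ± 0.08 (adjusted p = 0.000192), and it was detected in the NAc too. The regions did not overlap for any of these 3 genes.

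Across all transcripts, 20646 probes passed the detection filter in at least 1 region. At an adjusted p under 0.05, 1714 probes (8.3%) were higher in the NAc and 1774 (8.59%) were higher in the PFC, so that the calls divided almost evenly between the regions. The difference reached 2-fold for 247 of the first (1.2% of probes tested) and 268 of the second (1.3%). In all, 3860 probes (18.7%) had every NAc array above every PFC array, and 4289 (20.8%) the reverse. All 3488 called probes differed in the same direction in each of the 3 pools. The count depended on the pools. Without pool 1, 921 probes were called, without pool 2, 403, and without pool 3, whose NAc array stood apart, 6981. The pools in the fit without pool 3 shared a BeadChip in each region. With the BeadChip as a random block 2325 were called. At least 2-fold, the calls were 485, 336 and 493 without pools 1, 2 and 3. At 1 probe per gene, 14154 genes were tested, of which 1252 (8.85%) were higher in the NAc and 1273 (8.99%) in the PFC, with a median difference of -0.01. These shares are the background for each gene list below.

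**Figure D1:**
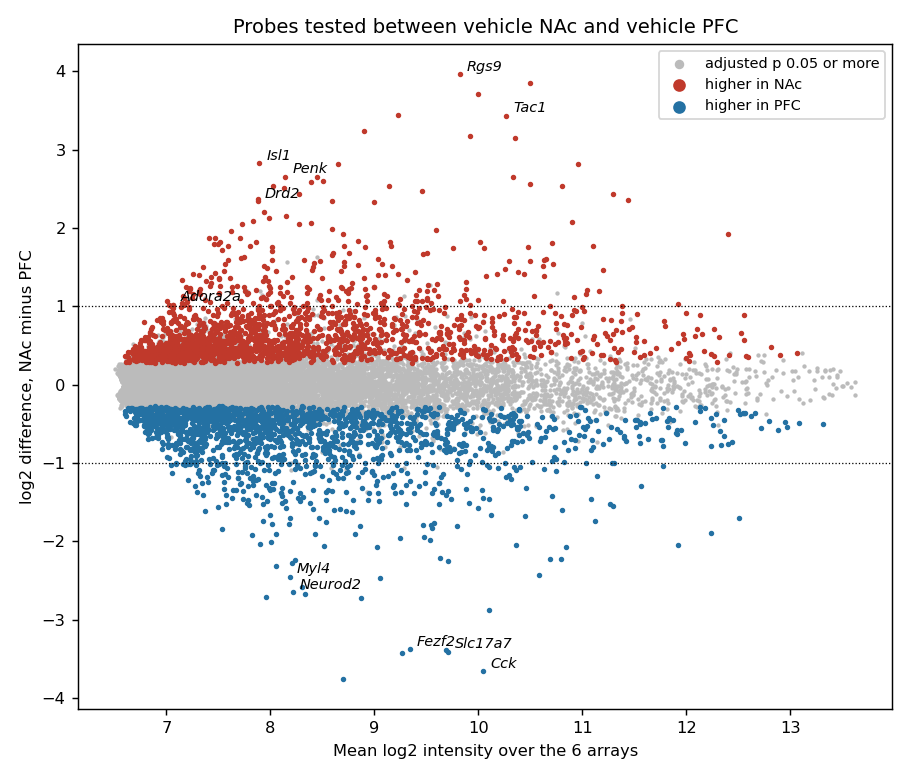
Each point is 1 of the 20646 probes tested, with its mean log2 intensity over the 6 vehicle arrays on the x axis and its log2 difference, NAc minus PFC, on the y axis. Red points (1714) were higher in the NAc and blue points (1774) higher in the PFC at an adjusted p under 0.05, dotted lines mark a 2-fold difference, and both directions reach a difference near 4 log2 units.

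Receptors and signalling proteins of dopamine-responsive neurons were among those with the largest differences in favour of the NAc. Rgs9, a regulator of G-protein signalling concentrated in the striatum, measured 11.79, 11.91 and 11.71 in NAc pools 1 to 3, against 7.67, 7.59 and 8.26 in the PFC pools. It had the largest difference of the named genes, 3.96 ± 0.17 log2 units or 15.6-fold (adjusted p = 0.000275). Ppp1r1b, the dopamine- and cAMP-regulated phosphoprotein that inhibits protein phosphatase, measured 12.45, 12.63 and 12.19 in NAc pools 1 to 3, against 8.42, 8.33 and 8.96 in the PFC pools. The groups lay far apart, by 3.85 ± 0.20 log2 units or 14.4-fold. Pool 3 gave the smallest difference at this probe (3.23) but the largest at 2 dimmer probes, of which one gave 2.21 ± 0.17 and the other, detected on 0 of 3 PFC arrays, was at least 3.13-fold higher in the NAc. Drd1 (D1 dopamine receptor, Drd1a on the array) measured 10.81, 11.02 and 11.01 in NAc pools 1 to 3, against 7.45, 7.39 and 7.68 in the PFC pools, a 10.8-fold difference. The 3 pools agreed more closely for Drd1, with an SE of 0.09 log2 units, than for Drd2, with an SE of 0.16. The adjusted p of the 25 named genes (limma) was highest for Penk, at 0.003. For 13 of them 16 further probes were tested, all with a difference in the same direction, 15 of them called, and none as large as at the probe given.

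**Figure D2:**
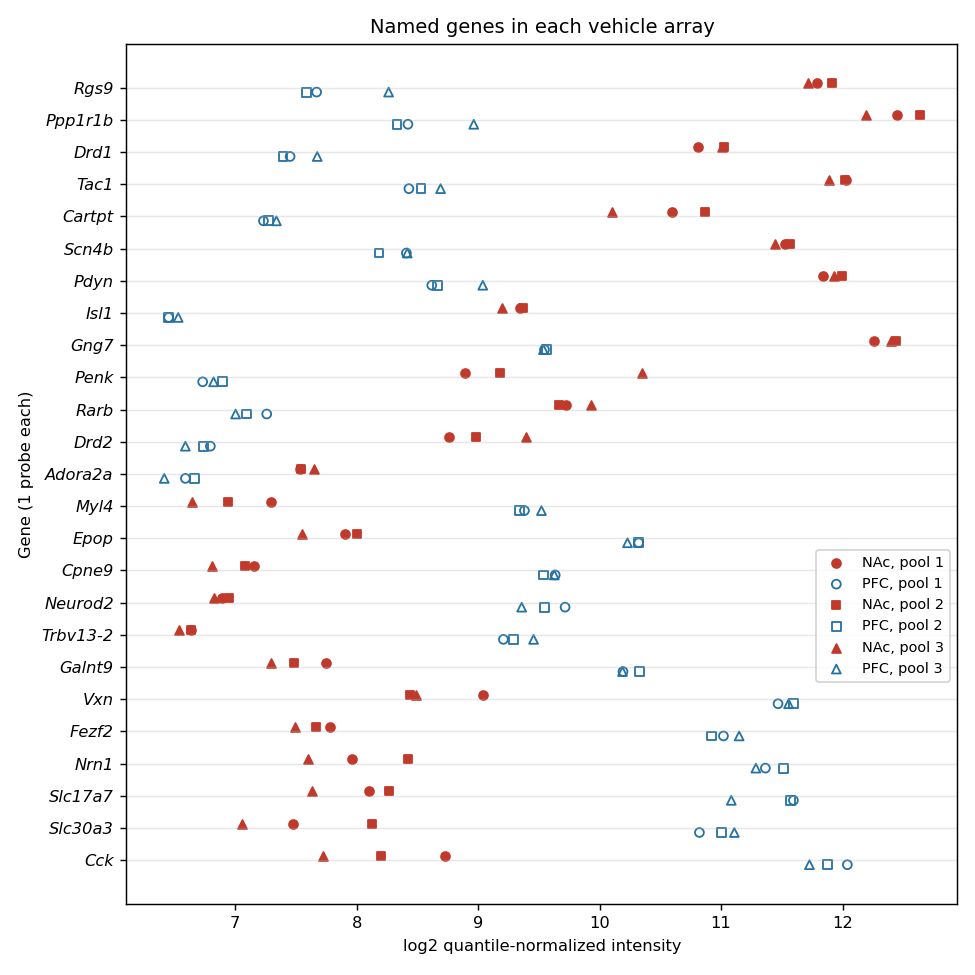
Log2 quantile normalized intensity (x axis) of the 25 named genes (y axis), 1 probe each, on the 3 NAc arrays (filled red) and the 3 PFC arrays (open blue), with the shape of the point giving the pool of mice. For every gene shown the 3 NAc points lie to 1 side of the 3 PFC points, which the rule for the 23 genes with the largest differences required, and the NAc points of Penk spread from 8.89 to 10.35.

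Among 15 receptors of dopamine, adenosine and related orphan or muscarinic receptors, 9 were tested, of which 6 were higher in the NAc and 2 in the PFC, with a median difference of 1.74. Besides Drd1, Drd2 and Adora2a, the receptors higher in the NAc included Gpr83, a neuropeptide receptor (1.74 ± 0.07), and Gpr6, an orphan receptor of D2-type neurons, which was detected on 0 of 3 PFC arrays and at least 3.17-fold higher in the NAc. The A1 adenosine receptor Adora1 ran the other way, 8.94, 8.77 and 9.01 in NAc pools 1 to 3, against 9.79, 9.62 and 9.33 in the PFC pools. It was higher in the PFC by a log2 difference of -0.67 ± 0.13 (adjusted p = 0.0211), as was Adora2b (-0.31 ± 0.07, adjusted p = 0.0388). Adenosine receptors thus differed in both directions. Drd3, whose product is a D2-like receptor known from the ventral striatum, measured 6.75, 6.71 and 6.61 in NAc pools 1 to 3, against 6.58, 6.61 and 6.59 in the PFC pools and did not pass (adjusted p = 0.427). Each of these values lay below the lowest intensity of a detected probe on its array, so that this probe cannot compare Drd3 between the regions. Drd4, Drd5, Chrm1 and Chrm4 were among the 6 genes that were not tested. Without pool 1, pool 2 and pool 3 in turn, 6, 6 and 8 of the 9 were called.

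Dopamine and adenosine receptors act on adenylyl cyclase, and 34 of 37 listed genes of the G-protein, cyclase, phosphodiesterase and phosphoprotein steps of this cascade were tested. Of these, 17 were higher in the NAc, 6 were higher in the PFC and 11 did not pass, with a median difference of 0.30. The subunits of the olfactory-type G protein, which couples the receptors of Drd1 and Adora2a to cyclase in the striatum, were both higher in the NAc. Gnal, the alpha subunit, measured 8.84, 8.78 and 9.53 in NAc pools 1 to 3, against 6.76, 6.94 and 7.07 in the PFC pools, and Gng7, the gamma subunit, measured 12.26, 12.44 and 12.40 in NAc pools 1 to 3, against 9.55, 9.56 and 9.54 in the PFC pools. At these probes, the brightest of each gene, the differences were 2.13 ± 0.13 and 2.82 ± 0.08 log2 units, and the NAc arrays exceeded the PFC arrays in each pool. A dimmer Gnal probe, detected on 0 of 3 PFC arrays, was called at least 1.74-fold higher in the NAc. Its remaining probes did not pass, with 0.38 ± 0.12 at one and -0.14 ± 0.07 at one detected on no array. The 3 tested cyclases that passed were higher in the PFC, with Adcy1, a calcium-stimulated cyclase, at -1.75 ± 0.07, Adcy2 at -1.07 ± 0.11 and Adcy8 at -0.69 ± 0.13. Adcy5, the main striatal cyclase, was not tested. Phosphodiesterases, which break down cyclic nucleotides, were divided by member. Pde10a (1.87 ± 0.10), Pde1b (2.36 ± 0.15), Pde7b (at least 1.56-fold) and Pde1c (0.80 ± 0.08) were higher in the NAc, while Pde1a (-0.76 ± 0.12) and Pde4a (-0.68 ± 0.09) were higher in the PFC. The other Pde1a probes did not pass, with -0.10 ± 0.08 and 0.09 ± 0.09 at those detected on every array.

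Further along the cascade, the regulatory subunit of protein kinase A Prkar2b (1.48 ± 0.07), the small GTPase Rasd2 (2.54 ± 0.07), the exchange factor Rasgrp2 (0.97 ± 0.07) and the striatum-enriched phosphatase Ptpn5 (0.91 ± 0.21, adjusted p = 0.0368) were higher in the NAc. Arpp21, a cAMP-regulated phosphoprotein, was higher in the NAc by 1.92 ± 0.07 at its brightest probe. Its probes disagreed, since 2 of its other probes were called higher in the PFC (-0.64 ± 0.09 and -0.60 ± 0.09). Regulators of G-protein signalling differed by member, with Rgs8 (0.91 ± 0.10) and Rgs2 (0.61 ± 0.07) higher in the NAc and Rgs4 (-0.43 ± 0.10, adjusted p = 0.0354) higher in the PFC. With pool 1, 2 or 3 left out, 15, 13 and 26 of the 34 genes of the cascade were called.

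Neuropeptide transcripts differed strongly in both directions. Of 18 peptide genes 16 were tested, of which 7 were higher in the NAc and 6 in the PFC. Tac1, the precursor of substance P, measured 12.02, 12.02 and 11.89 in NAc pools 1 to 3, against 8.43, 8.53 and 8.69 in the PFC pools, a 10.8-fold difference. Pdyn, the precursor of dynorphin, measured 11.84, 11.99 and 11.93 in NAc pools 1 to 3, against 8.62, 8.67 and 9.04 in the PFC pools, an 8.86-fold difference. Both are peptides of D1-type neurons, and at these probes the NAc pools had SDs of 0.08. A second, dimmer Pdyn probe varied more over the NAc pools, from 9.001 to 9.65, and gave a smaller difference of 2.05 ± 0.14. Cartpt (Cart on the array), a peptide of accumbal neurons, measured 10.60, 10.86 and 10.10 in NAc pools 1 to 3, against 7.23, 7.27 and 7.34 in the PFC pools, a 9.44-fold difference. Penk, the precursor of enkephalin in D2-type neurons, measured 8.89, 9.18 and 10.35 in NAc pools 1 to 3, against 6.73, 6.90 and 6.82 in the PFC pools. Here the NAc pools varied widely, with pool 3 highest, and the difference was 2.66 ± 0.27 log2 units (adjusted p = 0.003). In pools 1 to 3 it was 2.16, 2.28 and 3.52. Without pool 2 the difference of Penk was 2.84 and its adjusted p 0.0501, and without pool 3 it was 2.22. Smaller differences in favour of the NAc were those of Nts (neurotensin, detected on 0 of 3 PFC arrays and at least 1.78-fold higher), Trh (0.64 ± 0.10) and Sst (0.74 ± 0.08).

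In the PFC the leading peptide was Cck, cholecystokinin, made by pyramidal cells and some interneurons, which measured 8.73, 8.20 and 7.72 in NAc pools 1 to 3, against 12.04, 11.87 and 11.73 in the PFC pools. It was 12.7-fold higher in the PFC, a log2 difference of -3.66 ± 0.14 (adjusted p = 0.000219). Adcyap1, the precursor of the peptide PACAP, measured 6.88, 6.64 and 6.63 in NAc pools 1 to 3, against 8.22, 8.33 and 8.27 in the PFC pools and was 2.94-fold higher in the PFC. Cort (cortistatin, -1.53 ± 0.11) and Vip (detected on 0 of 3 NAc arrays and at least 1.97-fold higher) were also higher in the PFC, as was Npy by a smaller margin (-0.36 ± 0.08, adjusted p = 0.0292). Among receptors for peptides, 17 of 25 were tested, 3 were higher in the NAc and 4 in the PFC. Cckbr, the brain receptor for cholecystokinin, measured 8.72, 8.76 and 8.26 in NAc pools 1 to 3, against 11.0005, 10.74 and 10.75 in the PFC pools, so that ligand and receptor transcripts were both higher in the PFC. Oprk1, the receptor for dynorphin, was detected on 0 of 3 PFC arrays and was at least 1.67-fold higher in the NAc, the region with more Pdyn. Tacr1, the receptor for substance P, was higher in the NAc by 0.54 ± 0.08, and Npy1r was higher in the PFC (-0.75 ± 0.08). The opioid receptors Oprm1 and Oprd1 were not tested. Leaving out pool 1, 2 or 3 gave calls for 9, 6 and 15 of the 16 peptides and 3, 1 and 11 of the 17 receptors.

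Transcription factors of the embryonic subpallium, from which the striatum arises, were higher in the NAc. Of 26 such factors 18 were tested, 13 were higher in the NAc, 0 were higher in the PFC (limma, also 0 at an unadjusted p under 0.05) and 5 did not pass, with a median difference of 0.83 and a lowest value of 0.02. Isl1, a LIM-homeodomain factor of D1-type and cholinergic neurons, measured 9.34, 9.37 and 9.20 in NAc pools 1 to 3, against 6.45, 6.46 and 6.53 in the PFC pools. It was detected on every NAc array and no PFC array, and was at least 5.91-fold higher in the NAc (adjusted p = 0.000192). Rarb, a retinoic acid receptor, measured 9.72, 9.66 and 9.93 in NAc pools 1 to 3, against 7.26, 7.09 and 7.0044 in the PFC pools, a 6.29-fold difference. Bcl11b, required for maturation of striatal projection neurons and also a factor of deep-layer cortical neurons, measured 10.86, 10.90 and 11.02 in NAc pools 1 to 3, against 8.88, 8.95 and 9.50 in the PFC pools. It was expressed in both regions and 3.52-fold higher in the NAc. Tshz1 (1.68 ± 0.12), Zfhx3 (1.36 ± 0.11), Dlx6 (1.34 ± 0.10), Meis2 (1.1979 ± 0.09), Foxp2 (1.02 ± 0.09) and Foxp1 (0.94 ± 0.16) were also higher in the NAc. Dlx5, Gsx2 and Nkx2-1 were among 8 factors not tested. When pools 1, 2 and 3 were left out in turn, calls were made for 10, 7 and 14 of the 18.

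Factors of the embryonic pallium mostly ran the other way, with 13 of 22 tested genes higher in the PFC, 2 higher in the NAc and a median difference of -0.45. Fezf2 (Zfp312 on the array), which specifies subcortical projection neurons of the deep layers, measured 7.79, 7.66 and 7.50 in NAc pools 1 to 3, against 11.02, 10.92 and 11.15 in the PFC pools. The PFC was 10.4-fold higher (adjusted p = 0.000201), and a second probe gave -2.68 ± 0.08 log2 units. Neurod2, a bHLH factor of pyramidal cells, measured 6.89, 6.95 and 6.82 in NAc pools 1 to 3, against 9.72, 9.54 and 9.36 in the PFC pools, a 6.29-fold difference, with a smaller one at a dimmer probe (-0.45 ± 0.07). Tbr1, a T-box factor of layer 6 and of early-born cortical neurons, measured 6.93, 6.94 and 6.83 in NAc pools 1 to 3, against 9.26, 9.26 and 9.13 in the PFC pools, a 4.99-fold difference. The PFC pools of these 3 factors had SDs of at most 0.18. Tshz3 (-2.06 ± 0.07), Satb1 (-1.95 ± 0.07), Zbtb18 (-1.77 ± 0.08), Mef2c (-1.74 ± 0.11) and the upper-layer factor Cux2 (-1.12 ± 0.18) were higher in the PFC as well. The 2 listed factors higher in the NAc were Tle4, a corepressor used as a marker of deep layers (1.28 ± 0.08), and Pou3f1 (0.78 ± 0.08). Without pool 1, pool 2 and pool 3 in turn, 10, 8 and 18 of the 22 were called.

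Of 31 markers of cortical layers and pyramidal cells 25 were tested, with 11 higher in the PFC and 5 in the NAc. Slc30a3, the zinc transporter of glutamatergic vesicles, measured 7.48, 8.12 and 7.05 in NAc pools 1 to 3, against 10.82, 11.0005 and 11.11 in the PFC pools. The PFC arrays lay close together and the NAc arrays spread, pool 3 lowest, and the difference was -3.42 ± 0.21 log2 units (adjusted p = 0.00082). Stx1a, a plasma membrane protein of synaptic vesicle release, was 5.37-fold higher in the PFC, and Camk2a, the kinase of glutamatergic synapses, 2.24-fold. Nrgn, a calmodulin-binding protein of dendritic spines, measured 9.65, 9.76 and 10.58 in NAc pools 1 to 3, against 11.89, 11.77 and 11.15 in the PFC pools, with pool 3 giving the smallest difference (-0.57). The 5 genes higher in the NAc were Kcnip2 (1.13 ± 0.13), Foxp2, Trh, Syt6 (at least 1.3-fold) and Plxnd1 (0.49 ± 0.09), of which Kcnip2, Foxp2 and Trh also stood in other lists. Among the 11 higher in the PFC, Tbr1 and Ntsr1 did so too. With pool 1, 2 or 3 left out, 9, 5 and 19 of the 25 were called.

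Several of the largest differences in favour of the PFC belonged to genes outside the lists. Nrn1, neuritin, a membrane-anchored protein that promotes neurite growth and is induced by activity, measured 7.97, 8.43 and 7.60 in NAc pools 1 to 3, against 11.36, 11.51 and 11.29 in the PFC pools, a 10.5-fold difference (adjusted p = 0.000219). Vxn (3110035E14Rik on the array) measured 9.04, 8.44 and 8.49 in NAc pools 1 to 3, against 11.47, 11.60 and 11.56 in the PFC pools, a 7.38-fold difference. Galnt9, a brain enzyme of O-linked glycosylation, measured 7.75, 7.48 and 7.29 in NAc pools 1 to 3, against 10.19, 10.33 and 10.19 in the PFC pools, a 6.63-fold difference. In each case the NAc pools were more dispersed than the PFC pools. Trbv13-2 (Tcrb-V8.2 on the array), a variable segment of the T-cell receptor beta locus, measured 6.64, 6.64 and 6.54 in NAc pools 1 to 3, against 9.21, 9.29 and 9.46 in the PFC pools. It was detected on every PFC array and no NAc array, and was at least 6.06-fold higher in the PFC. Cpne9, a calcium-dependent membrane-binding protein, was 6-fold higher in the PFC, Epop (E130012A19Rik) 5.55-fold and Myl4, a myosin light chain, 5.48-fold. A second Cpne9 probe, near background, gave -0.15 ± 0.07 and did not pass. The lowest point in the plot of all probes is that of LOC665506, a transcript without a current symbol that was named here after its values were seen. It measured 6.95, 6.70 and 6.83 in NAc pools 1 to 3, against 10.51, 10.55 and 10.68 in the PFC pools, a log2 difference of -3.75 ± 0.09 (SE).

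The regions differed in transmitter genes as well. Of 18 tested genes of vesicular transporters, GABA synthesis and GABA receptors, 8 were higher in the NAc and 2 in the PFC. The GABA-synthesizing enzymes Gad1 (3.04-fold) and Gad2 (4.23-fold), the vesicular GABA transporter Slc32a1 (3.4-fold) and the GABA-degrading enzyme Abat (2.66-fold) were all higher in the NAc. Slc32a1 measured 12.01, 12.03 and 11.92 in NAc pools 1 to 3, against 10.17, 10.17 and 10.33 in the PFC pools, so that the regions were well apart. GABA receptor subunits differed by member, with Gabrd (0.82 ± 0.07) higher in the NAc and Gabra3 (-0.60 ± 0.13) and the GABA-B subunit Gabbr2 (-0.86 ± 0.08) higher in the PFC. The vesicular glutamate transporter Slc17a8, found in cholinergic and some other non-pyramidal neurons, was higher in the NAc (0.83 ± 0.08). Slc17a6, the subcortical one, measured 8.56, 8.24 and 7.39 in NAc pools 1 to 3, against 8.89, 8.79 and 9.11 in the PFC pools and did not pass (adjusted p = 0.0839). Leaving out pool 1, 2 or 3 gave calls for 8, 4 and 14 of the 18.

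Of 13 tested interneuron genes 5 were higher in the PFC and 3 in the NAc. Pvalb, the calcium-binding protein of fast-spiking interneurons, measured 8.91, 8.72 and 7.9995 in NAc pools 1 to 3, against 10.74, 10.29 and 10.53 in the PFC pools, a 3.95-fold difference in favour of the PFC, and Crhbp (-1.48 ± 0.08) went with it. Sst, in contrast, was higher in the NAc, 10.58, 10.79 and 11.47 in NAc pools 1 to 3, against 9.96, 10.02 and 10.63 in the PFC pools, with pool 3 highest in both regions. The 3 genes higher in the NAc, namely Tac1, Gad1 and Sst, stood in other lists too, as did Vip, Npy and Htr3a among the 5 higher in the PFC. Genes of cholinergic interneurons, large cells that are few in the striatum, were higher in the NAc. Chat, the enzyme of acetylcholine synthesis, measured 8.43, 8.54 and 8.32 in NAc pools 1 to 3, against 6.59, 6.72 and 6.51 in the PFC pools. It was detected on 0 of 3 PFC arrays and was at least 3.23-fold higher in the NAc, as was the choline transporter Slc5a7 by at least 2.14-fold. In all, 6 of 9 tested cholinergic and monoamine genes were higher in the NAc and 0 in the PFC (limma, also 0 at an unadjusted p under 0.05). When pools 1, 2 and 3 were left out in turn, calls were made for 6, 4 and 9 of the 13 interneuron genes and 3, 2 and 6 of the 9 cholinergic and monoamine genes.

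Ion channels showed no common direction. Of 40 tested voltage-gated and related channel genes, 9 were higher in the NAc, 11 in the PFC and 20 did not pass, with a median of 0.02. Scn4b, a sodium channel beta subunit abundant in the striatum, measured 11.52, 11.57 and 11.44 in NAc pools 1 to 3, against 8.41, 8.18 and 8.42 in the PFC pools, a 9.03-fold difference. It was followed by the background potassium channel Kcnk2 (1.49 ± 0.17) and the potassium channel beta subunit Kcnab1 (1.13 ± 0.10). The potassium channel partners of the Kcnip family were divided. Kcnip2 was higher in the NAc, while Kcnip3 (-0.64 ± 0.07) and Kcnip4 (-0.94 ± 0.08) were higher in the PFC, together with the modulatory subunit Kcnv1 (-0.97 ± 0.11). Without pool 1, pool 2 and pool 3 in turn, 9, 3 and 26 of the 40 were called.

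Genes of endocannabinoid metabolism were higher in the PFC, 6 of 8 tested against 0 in the NAc (limma, also 0 at an unadjusted p under 0.05), with a median difference of -0.43. Faah, which degrades anandamide, measured 7.60, 7.48 and 7.12 in NAc pools 1 to 3, against 8.74, 8.76 and 9.16 in the PFC pools, a 2.8-fold difference, and Napepld, which makes it from a membrane precursor, differed by -0.86 ± 0.08. Cnrip1, which binds the cannabinoid receptor, differed by -0.97 ± 0.09. The remaining differences were small, down to that of Mgll (-0.32 ± 0.08, adjusted p = 0.0401) at its brightest probe. Its other probes, both called, gave larger differences of -0.75 ± 0.10 and -0.46 ± 0.11. With pool 1, 2 or 3 left out, 3, 0 and 7 of the 8 were called.

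Of 23 tested glutamate receptor and scaffold genes 17 did not pass. Grm5 (0.91 ± 0.15) and Grm7 (0.83 ± 0.07), both metabotropic receptors, were higher in the NAc. The other Grm7 probes did not pass, with 0.10 ± 0.08 at the one detected on every array. Homer2, a scaffold of metabotropic receptors, measured 8.24, 8.10 and 7.54 in NAc pools 1 to 3, against 9.78, 9.72 and 9.79 in the PFC pools, a 3.48-fold difference in favour of the PFC, and Grm8 was also higher there (-0.75 ± 0.08). Among 10 serotonin receptors tested, 2 were higher in each region. Htr1d measured 7.99, 8.30 and 8.02 in NAc pools 1 to 3, against 6.52, 6.54 and 6.76 in the PFC pools, a 2.83-fold difference in favour of the NAc. In the retinoid list 0 of 10 were higher in the PFC (limma, 2 at an unadjusted p under 0.05) and 3 were higher in the NAc, among them Rarb and its partner Rxrg (8.78, 8.94 and 8.90 in NAc pools 1 to 3, against 6.76, 6.85 and 6.75 in the PFC pools, 4.24-fold). Of 20 tested genes in a list of others known from the striatum, 16 were higher in the NAc, among them the indoleamine dioxygenase Ido1 (2.51 ± 0.10), Syndig1l (2.53 ± 0.29), Strip2 (2.34 ± 0.09), the sarcomeric actinin Actn2 (1.92 ± 0.08) and Wfs1 (1.67 ± 0.10). Of these 16, Scn4b, Rarb, Arpp21 and Foxp1 also stood in lists given above. Strn4, a striatin, was higher in the PFC (-0.73 ± 0.16, adjusted p = 0.0324). Leaving out pool 1, 2 or 3 gave calls for 4, 2 and 9 of the glutamate list, 1, 1 and 4 of the serotonin list, 3, 2 and 6 of the retinoid list and 12, 9 and 18 of this striatal list.

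**Figure D3:**
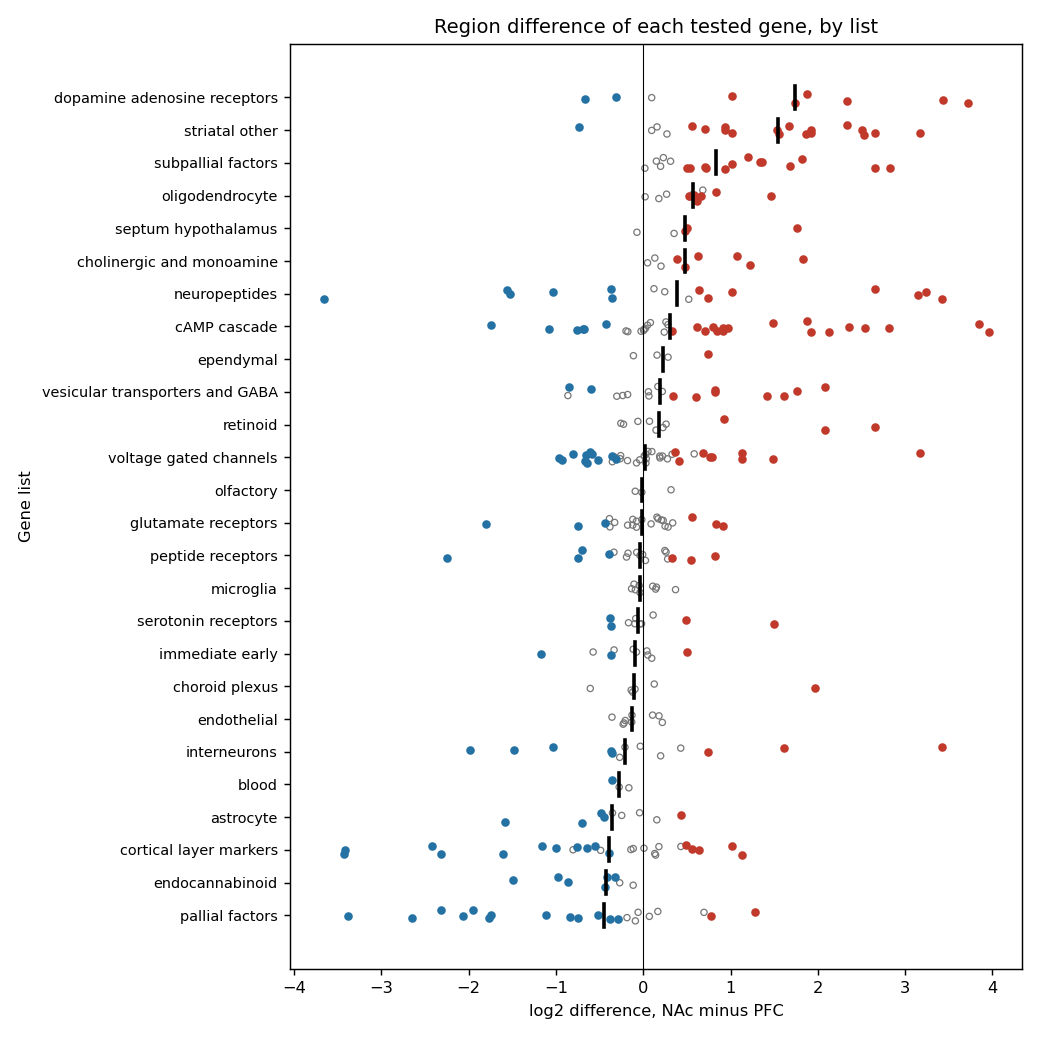
The log2 difference, NAc minus PFC (x axis), of each tested gene in the 26 lists (y axis, sorted by median), 1 probe per gene. Filled red and blue points passed an adjusted p of 0.05, open points did not, and black bars are list medians, which run from -0.45 for pallial factors to 1.74 for dopamine and adenosine receptors.

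Markers of other cell types were compared in the same way, and their part in the differences above was not tested. Oligodendrocyte genes were higher in the NAc, 6 of 12 tested against 0 in the PFC (limma, also 0 at an unadjusted p under 0.05), with Mobp, a protein of compact myelin, at 10.02, 9.46 and 9.36 in NAc pools 1 to 3, against 8.81, 8.67 and 8.87 in the PFC pools. The summed intensity of the 12 genes ranged over the NAc arrays from 17283.8 to 22199.6, and over the PFC arrays from 10108.5 to 12203.3. Mbp probes disagreed, since the brightest gave 0.66 ± 0.07 and another was called higher in the PFC (-0.72 ± 0.08). The oligodendrocyte calls were 2 with the BeadChip as a random block and 1, 1 and 10 without pools 1, 2 and 3. Astrocyte genes gave 4 of 9 higher in the PFC and 1 (Agt) in the NAc, but their summed intensity overlapped (8548.6 to 10129.8 on NAc arrays, 9955.4 to 10974.4 on PFC arrays). Gfap, the intermediate filament of astrocytes, measured 7.86, 7.44 and 7.56 in NAc pools 1 to 3, against 9.58, 9.38 and 8.66 in the PFC pools, a 2.99-fold difference, and the astrocyte calls were 1, 0 and 8 without pools 1, 2 and 3.

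Microglia and endothelial markers had 0 calls among 9 tested genes each (limma, 1 and 2 at an unadjusted p under 0.05), with summed intensities that overlapped between regions (2511.7 to 2572.8 and 2389.9 to 2705.2 for microglia). The endothelial calls were 1 with neqc normalization, which removes background, and 2 without pool 3. Choroid plexus markers had 1 call of 6, Clic6, which was 3.9-fold higher in the NAc. Ttr, the most abundant transcript of the choroid plexus, measured 7.87, 7.29 and 7.24 in NAc pools 1 to 3, against 7.57, 7.41 and 9.25 in the PFC pools and did not pass, with the PFC array of pool 3 above the other 5. Of the septal and hypothalamic markers, 5 of 12 were tested and 3 were higher in the NAc, namely Dlk1 (8.05, 8.35 and 9.01 in NAc pools 1 to 3, against 6.68, 6.67 and 6.77 in the PFC pools), Zic1 (0.50 ± 0.11) and Baiap3 (at least 1.27-fold). The other 2 tested, Oxt and Pmch, mark hypothalamic neurons, passed the detection filter and were not called. Avp, Hcrt and Agrp, which also mark such neurons, were among the 7 that did not pass the detection filter. Among ependymal markers 1 of 4, Rarres2, was higher in the NAc (0.74 ± 0.08), olfactory markers had 0 of 3 (1 at an unadjusted p under 0.05, and 1 call with neqc normalization, with all 9 vehicle arrays or without pool 3) and the blood gene Hbb-b1 was slightly higher in the PFC (-0.36 ± 0.08, adjusted p = 0.0304). When pools 1, 2 and 3 were left out in turn, calls were made for 1, 0 and 4 of the septal and hypothalamic genes, 1, 0 and 1 of the ependymal genes and 0, 0 and 3 of the blood genes.

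Immediate early genes, which neurons induce within minutes of activity, had 3 calls among 10 tested genes, 1 higher in the NAc and 2 in the PFC. Arc, an effector gene of synaptic plasticity, measured 8.11, 8.03 and 7.60 in NAc pools 1 to 3, against 9.54, 9.31 and 8.40 in the PFC pools, a 2.25-fold difference in favour of the PFC, where pool 3 was lower than the others. Fos was slightly higher in the PFC (-0.37 ± 0.09, adjusted p = 0.0492) and Egr4 in the NAc (0.50 ± 0.08). Without pool 1, pool 2 and pool 3 in turn, 1, 0 and 4 of the 10 were called, and with the BeadChip as a random block 1.

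Promoter sequences of the genes were taken from RefSeq (GRCm38.p6), each a window of 300 bases around a transcript start, 250 of them before it, 5′ to 3′ on the gene's strand. They were searched on both strands for the cAMP response element TGACGTCA and for 2 E-box sequences that neuronal bHLH factors can bind. The first E-box, CAGCTG, reads the same on both strands. The second, CATCTG, reads as its reverse complement on the other. None of the 3 motifs is contained in another. The 4 shown are named genes, chosen after the search because their windows hold at least 1 of these sequences, which is in capitals. Rgs9 and Cartpt were higher in the NAc and Cck and Neurod2 in the PFC. They lie at chr11:109298132-109298431, chr13:99900634-99900933, chr9:121495645-121495944 and chr11:98329596-98329895, all on the minus strand.
Rgs9: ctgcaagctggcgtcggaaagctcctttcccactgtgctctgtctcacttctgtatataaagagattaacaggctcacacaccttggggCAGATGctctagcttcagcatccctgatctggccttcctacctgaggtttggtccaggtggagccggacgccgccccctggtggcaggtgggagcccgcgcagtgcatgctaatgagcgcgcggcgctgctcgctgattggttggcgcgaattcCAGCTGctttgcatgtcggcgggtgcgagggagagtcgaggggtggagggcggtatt
Cartpt: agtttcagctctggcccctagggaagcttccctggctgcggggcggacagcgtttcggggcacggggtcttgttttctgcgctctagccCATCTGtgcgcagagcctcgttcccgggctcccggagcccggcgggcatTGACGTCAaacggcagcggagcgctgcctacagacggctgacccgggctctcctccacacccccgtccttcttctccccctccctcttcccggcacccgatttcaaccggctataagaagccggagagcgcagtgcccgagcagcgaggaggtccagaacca
Cck: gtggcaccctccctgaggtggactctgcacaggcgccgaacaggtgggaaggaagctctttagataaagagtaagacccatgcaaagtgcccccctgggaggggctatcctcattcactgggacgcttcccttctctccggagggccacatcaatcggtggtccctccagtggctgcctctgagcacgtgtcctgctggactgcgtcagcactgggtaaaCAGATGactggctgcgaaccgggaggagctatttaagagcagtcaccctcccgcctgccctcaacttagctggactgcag
Neurod2: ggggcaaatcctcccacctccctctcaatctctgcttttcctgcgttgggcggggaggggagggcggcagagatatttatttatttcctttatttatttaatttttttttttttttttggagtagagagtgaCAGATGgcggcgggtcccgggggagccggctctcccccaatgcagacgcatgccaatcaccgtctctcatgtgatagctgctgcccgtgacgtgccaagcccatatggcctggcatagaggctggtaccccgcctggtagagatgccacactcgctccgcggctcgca
Of these, Cartpt holds the cAMP response element, 112 bases before the transcript start, and all 4 hold a CATCTG E-box. Of 193 genes at least 2-fold higher in the NAc, 130 had 189 promoters in the table, and of 208 higher in the PFC, 147 had 215. The cAMP response element was in 1.59% of the first, 3.26% of the second and 1.79% of all 32851 promoters. CAGCTG was in 21.2%, 15.3% and 16.3%, and CATCTG in 15.9%, 17.7% and 17.2%. Among promoters of all genes tested the 3 shares were 3.01%, 15.8% and 11.9%. These are descriptions of the letters in a short window, and no test was run on them.

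The same region difference was measured in the 9 drug-treated pools, whose arrays were not in the fit of the vehicle comparison, although those of Cpd-60 and SAHA were in its quantile normalization. With 36 arrays normalized together, 25111 probes were tested in a fit of 24 arrays that included the 6 vehicle arrays. The variance and the detection filter behind the drug-pool calls and SEs therefore drew on the vehicle arrays as well. In the drug pools, 4392 (17.5%) were higher in the NAc and 4433 (17.7%) in the PFC. Of the 3488 probes called in vehicle, 3487 had the same sign in the drug pools and 3392 were also called there in that direction, and all 515 that reached 2-fold in vehicle were called in that direction. Of all 20646 probes tested in vehicle, 17211 had the same sign in the drug pools, 8269 were called there in the vehicle direction and 115 in the opposite one. The drug arrays lay on the same 4 BeadChips as the vehicle arrays, each of which held 1 region, so that region and BeadChip cannot be told apart in the drug pools either. Drd1 differed by 3.44 in vehicle pools and by 3.29 ± 0.09 (SE) in drug pools, Tac1 by 3.42 and 3.25 ± 0.12, Fezf2 by -3.38 and -3.48 ± 0.08. Slc17a7 differed by -3.41 in vehicle and by -3.91, -4.14 and -4.07 under Cpd-60, SAHA and CI-994, where single pools ranged from -4.93 to -2.68. The vehicle difference minus that of the drug pools was 0.63 ± 0.38 for Slc17a7 and did not pass (adjusted p = 1). Over all probes this difference passed an adjusted p of 0.05 for 0 of 25111 (0.0%, limma), and 412 (1.64%) had an unadjusted p under 0.05. A p that misses the threshold does not show that the differences were alike.

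**Figure D4:**
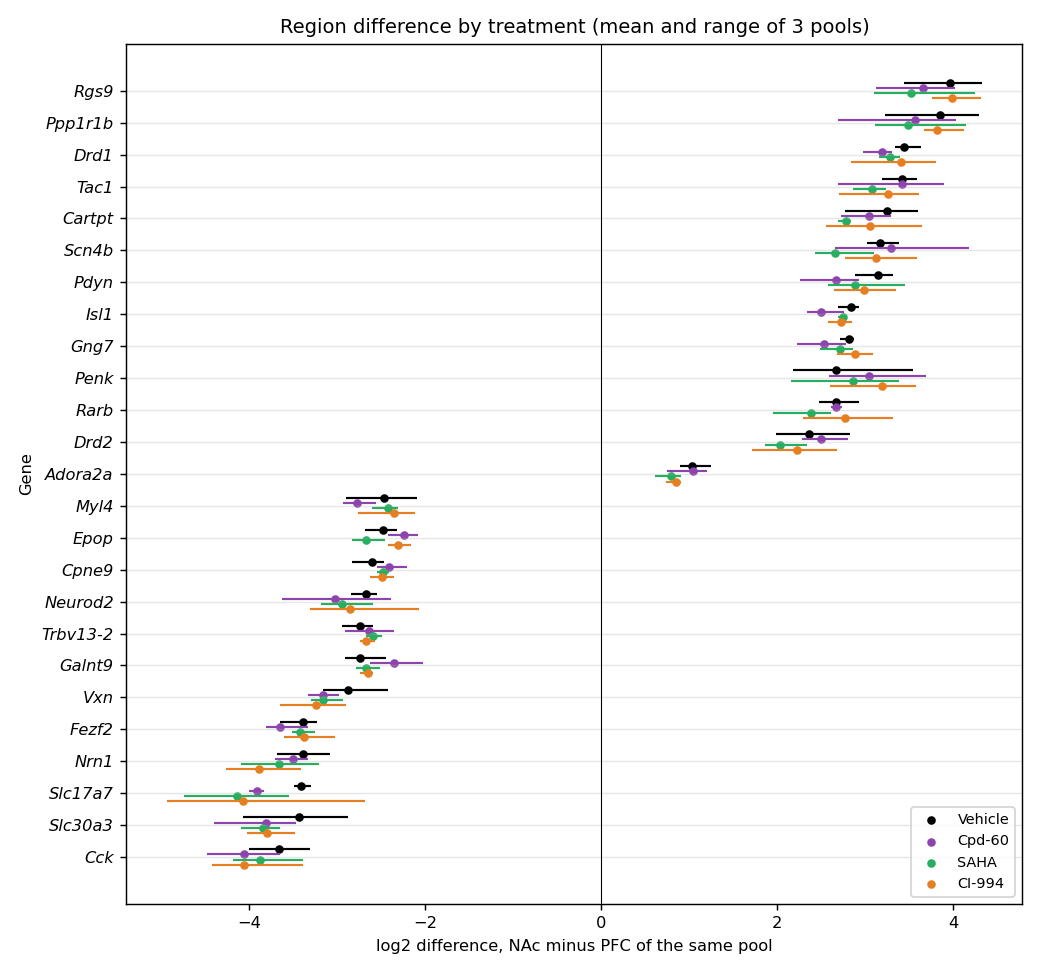
Log2 difference, NAc minus PFC of the same pool (x axis), of the 25 named genes (y axis) under vehicle (black), Cpd-60 (purple), SAHA (green) and CI-994 (orange). Points are means and lines the range of 3 pools, and under each treatment every line stays on the side of 0 it has in vehicle.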

How the data were processed

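Total RNA was extracted, labelled as biotin cRNA and hybridized to Illumina MouseWG-6 arrays. For 45281 probes per array the authors deposited a raw linear intensity, neither background-subtracted nor normalized, and a detection p-value. The authors' own quantile normalization and median baseline in GeneSpring are not in these values. Samples were grouped by the treatment, region and mice in the labels.

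In R 4.3.3 with limma 3.58.1, 27 arrays (vehicle, Cpd-60 and SAHA, all regions) were quantile normalized, floored at 1 and log2 transformed. Probes with a detection p of at most 0.2 on 3 of 3 arrays of either group were tested. The model held region and, as a fixed block, the pool of mice, which the labels place in both regions. Deviations of same-numbered arrays correlated at -0.0022, 0.09 and 0.06. Benjamini-Hochberg adjustment was over all tested probes at 0.05. The drug pools were fitted on 24 arrays normalized over all 36. In the labels 1 Cpd-60 pool carries mice 3 and 4 in the title and mice 1 and 2 in the description, and it was left out as an alternative.

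A gene is given by its tested probe with the highest mean intensity. Detected means a detection p of at most 0.01. Where a probe was undetected on all arrays of a group, the fold is a lower bound. It is set against the higher of the probe's own value and the lowest intensity among the detected probes of each array. Of 14867 symbols among tested probes, 12260 matched a current RefSeq symbol or synonym. The genes named are Drd2, Adora2a, Slc17a7 and the 12 largest differences in each direction whose groups did not overlap, of which 1 is not reported here, with list members named where their list is given. Members and lists were chosen with earlier results of these data known, so list counts are descriptions and no set test was run. The fits were tested on simulated data with 200 probes changed by 1 log2 unit. The vehicle fit recovered 69.5% of them, and 2.11% of its calls were unchanged probes. For the vehicle difference minus that in the drug pools, these were 83.5% and 7.22%. The simulated noise was independent between arrays, without pool or BeadChip effects, so it does not show how the fits behave with such effects. Alternatives were neqc normalization, quantile normalization over 6 or 36 arrays, median centring, other detection filters, no block, the BeadChip as a random block, all 9 vehicle arrays, and each pool left out.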

Additional observations from a re-analysis of the deposited data

How the results depend on the processing

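Against 3488 called probes in vehicle, the count was 2301 after median centring without the quantile step and 2325 with the BeadChip as a random block, and between 403 and 6981 when 1 pool was left out. Probes higher in the NAc were 1001 with the BeadChip block and 185 to 3557 without 1 pool, and probes higher in the PFC were 1074 after median centring and 218 to 3424 without 1 pool. The lowest counts were without pool 2 and the highest without pool 3, whose NAc array stood apart. The fits without 1 pool rest on 4 arrays. The other alternatives gave 3354 to 4413 calls. In the paired design, leaving out the replicate block gave 3586 calls, and 0 for the vehicle difference minus that in the drug pools, against 0 with it. The drug pools gave 9320 calls without the replicate block, against 8825 with it. Probes that reached 2-fold were 1475 with neqc normalization, which removes background, against 515 in the main setting (756 higher in the NAc and 719 in the PFC). Without 1 pool they were 336 to 493, of which 156 to 225 were higher in the NAc and 180 to 283 in the PFC. The cause of these shifts, beside fewer arrays and removed background, was not tested. The vehicle difference minus that in the drug pools passed for 0 probes under each alternative run. Of the 25 named genes, 24 kept their direction and their call under each alternative, and Penk kept its direction but did not pass without pool 2 (adjusted p = 0.0501, against 0.0287 without pool 1). Of the 185 called genes that were named or listed, the number no longer past the threshold was 72, 110 and 0 without pools 1, 2 and 3, 33 after median centring, 24 with the BeadChip block, 10 with neqc normalization, 7 without the block, 3 with 6 arrays normalized and 2 with all 9 vehicle arrays, and 0 reversed.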

Other observations

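Gene families, chosen by symbol after the values were seen, are given as descriptions against the 8.85% and 8.99% of all genes that were higher in the NAc and the PFC. They partly repeat the lists, which hold 5 of the called Rgs genes, 2 of the called vesicle release genes, 1 called kinase and 1 called guidance gene. Of 13 genes of calmodulin-dependent kinases and their inhibitors, 7 were higher in the PFC and 3 in the NAc. Camk1 (-1.28 ± 0.07, SE), Camk2g (-1.13 ± 0.13) and the inhibitor Camk2n2 (-1.0018 ± 0.15) were higher in the PFC, while Camk4, a nuclear kinase that acts on CREB, was higher in the NAc (1.28 ± 0.10), as was Camk2b (0.64 ± 0.11). Members of 1 kinase family thus differed in opposite directions. Of 31 syntaxins, synaptotagmins, synapsins and syntaxin-binding proteins, 10 were higher in the PFC and 3 in the NAc. Syt7, a calcium sensor of vesicle release, differed by -1.39 ± 0.08 and Syn1, a vesicle phosphoprotein, by -1.29 ± 0.16. Bdnf, a neurotrophin that cortical neurons supply to the striatum, differed by -2.03 ± 0.10 (adjusted p = 0.000391, limma), and its probe was detected on 2 of 3 NAc arrays.

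Among 15 Rgs genes, 7 were higher in the NAc and 3 in the PFC. Rgs10 differed by 1.51 ± 0.22 and Rgs7 by -0.75 ± 0.07. Of 50 axon guidance ligands and receptors, 8 were higher in the PFC and 5 in the NAc, led by Ephb6 (-1.36 ± 0.10) and Sema7a (-1.32 ± 0.11) in the PFC and Sema3f (0.96 ± 0.11) in the NAc. Of 9 carbonic anhydrases 2 were higher in the NAc and 3 in the PFC, with the extremes at Car12 (2.60 ± 0.14) and Car10 (-1.90 ± 0.07). Of 41 protocadherins, adhesion proteins of neurons, 0 were higher in the NAc (limma, 1 at an unadjusted p under 0.05) and 3 in the PFC, with differences from -0.61 to 0.52.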
